A study of Mus musculus with 16 samples.

Results

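The mouse mitochondrial genome encodes 37 genes, and all 37 were present among the 37991 genes of the deposited table, where they were taken as the rows whose symbol starts with mt-. They comprise 2 ribosomal RNAs (rRNAs), 13 messenger RNAs (mRNAs) and 22 transfer RNAs (tRNAs). All lie on the mitochondrial chromosome in mm9, 28 on the plus strand and 9 on the minus strand. Of these, 19 had enough reads for a test (2 rRNAs, 13 mRNAs and 4 tRNAs), and 18 tRNAs did not. RNA had been sequenced in bulk from mouse embryonic hearts at E10.5. Of the 16 libraries, 4 came from wild type (WT) hearts. A further 4 each came from hearts heterozygous for 1 altered Tbx5 allele (del/+ or CreERT2/+) or carrying both (del/CreERT2). Here del and CreERT2 name altered alleles of Tbx5, a T-box transcription factor gene of the heart, and no treatment is given in the labels. Nothing in the labels ties a library to its own embryo or pool, so p-values measure only the spread between libraries, part of which may be technical.

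Mitochondrial DNA is transcribed from both strands into long precursor RNAs that span nearly the whole circle. In most places a tRNA sits between the rRNAs and mRNAs, and its excision releases the RNAs on either side. The rRNAs form the core of the mitochondrial ribosome, which translates the mRNAs into subunits of the respiratory chain and of ATP synthase. The beating embryonic heart gains mitochondrial mass and respiratory capacity during midgestation. In bulk RNA, fewer mitochondria-rich cells and less mitochondrial RNA per cell cannot be told apart.

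Total counts ran from 21436305 to 42731841 per library, and mitochondrial RNA of all classes took 44.8% to 81.5% of them. The hearts carried cardiomyocyte genes at high levels in all 16 libraries, with Actc1 between 2670 and 5907 CPM (counts scaled to a library of 1e6) and Tnnt2 between 660.4 and 2027 CPM. Red blood cell genes were also abundant, with medians of 2138 CPM for the embryonic globin Hbb-y, 978.7 for Hbb-bh1 and 913.9 for Hba-x. The liver genes Afp and Alb had medians of 2.67 and 0.069 CPM but reached 154.0 and 51.4, and the neural crest gene Sox10 stayed at or below 0.283 CPM. The part of these cells in the mitochondrial values was not tested. Tbx5 was expressed in every library, from 13.7 to 41.5 CPM, and did not pass the test in any altered genotype (log2 change 0.66 ± 0.25 in del/+, 0.31 ± 0.25 in CreERT2/+ and 0.18 ± 0.25 in del/CreERT2, SE). A count over the whole gene does not check the altered alleles. CPM values here also carry TMM factors, a scaling from genes without extreme changes or levels, so those of the abundant mitochondrial RNAs can add up to more than the nominal total of a library. Levels compared between genes are also divided by gene length (CPM per kb).

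Several mitochondrial genes overlap or have close relatives elsewhere, and this bears on how reads could be counted. The sequences that follow come from GENCODE release vM21 (GRCm38), whose gene positions and strands equal those of the mm9 table for all 37 genes. The mt-Atp8 gene is shown because it shares its 3′ end with mt-Atp6 on the same strand. Capitals mark the 43 shared bases in the line for mt-Atp8, which lies on the plus strand at positions 7766 to 7969. In the ends of mt-Nd5 and mt-Nd6, which face each other on opposite strands, capitals mark the 14 shared bases. The 2 tRNAs shown held most tRNA reads.
mt-Atp8: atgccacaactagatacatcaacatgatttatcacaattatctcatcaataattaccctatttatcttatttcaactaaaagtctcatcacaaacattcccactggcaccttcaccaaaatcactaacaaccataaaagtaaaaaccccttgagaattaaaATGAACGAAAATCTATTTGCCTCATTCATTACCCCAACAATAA
mt-Nd5 (last 60 bases, plus strand): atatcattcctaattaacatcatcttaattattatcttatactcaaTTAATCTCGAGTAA
mt-Nd6 (last 60 bases, minus strand): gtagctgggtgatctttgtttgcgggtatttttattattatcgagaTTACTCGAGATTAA
mt-Tl1: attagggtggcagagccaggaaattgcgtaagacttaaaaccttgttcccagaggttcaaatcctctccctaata
mt-Tp: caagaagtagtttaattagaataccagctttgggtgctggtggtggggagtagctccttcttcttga

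A run of pseudogenes on chromosome 1 repeats part of the mitochondrial genome almost letter for letter. With a minimum of 99% identity over 100 bases, 7 of the 13 mRNAs had such a copy among the GENCODE transcripts and neither rRNA did. The tRNA genes are 59 to 75 bases long, shorter than this minimum, so the search could not find such a copy for any tRNA. mt-Co2 matched Gm28661 over 681 bases, mt-Co3 matched Gm28437 over 783, mt-Atp6 matched Gm10925 over 678 and mt-Nd4l matched Gm10222 over 294, all without a difference. The first 876 of 1378 bases of mt-Nd4 were identical in Gm28439. mt-Nd3 and its copy Gm28438 differed at 1 base in 345 (T3C, counted from the first base of mt-Nd3), and mt-Co1 differed from Gm29216 at 1 base in 483 (A1066T). Both differences are shown in capitals, with the mitochondrial gene first.
mt-Nd3: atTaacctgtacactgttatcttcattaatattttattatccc
Gm28438: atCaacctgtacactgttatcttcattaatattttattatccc
mt-Co1: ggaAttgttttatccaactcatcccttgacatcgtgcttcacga
Gm29216: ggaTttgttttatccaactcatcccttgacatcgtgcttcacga
A read from such a stretch fits both places, so the counts of these 7 mRNAs are uncertain. Copies that GENCODE does not annotate as a transcript were not searched.

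The rRNAs were by far the largest class of mitochondrial RNA in every library. Of all counts they held 60.6% to 69.3% in WT and 66.5% to 71.3% in del/+, then 42.3% to 78.3% in CreERT2/+ and 53.6% to 74.9% in del/CreERT2. The mRNAs held 3.46% to 4.37%, 2.67% to 4.13%, 2.44% to 4.04% and 3.46% to 3.66% in the same order. The genotypes overlapped in both classes. The tRNAs together held 0.00107% to 0.00127% of counts in WT and 0.000636% to 0.000927% in del/+, with 0.00063% to 0.00105% in CreERT2/+ and 0.000944% to 0.00116% in del/CreERT2. On this scale del/+ and CreERT2/+ lay below all WT libraries, but on others they overlapped WT. Per 1e6 nuclear counts, tRNAs gave 32.4 to 46.5 counts in WT, 22.4 to 34.7 in del/+ and 11.4 to 55.1 in CreERT2/+. Per 1e6 mitochondrial mRNA counts they gave 243.9 to 336.8, 175.8 to 261.6 and 237.8 to 297.6. The tRNA counts behind these shares were only 135 to 530 per library. Sums over a class are given without a test.

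**Figure D1:**
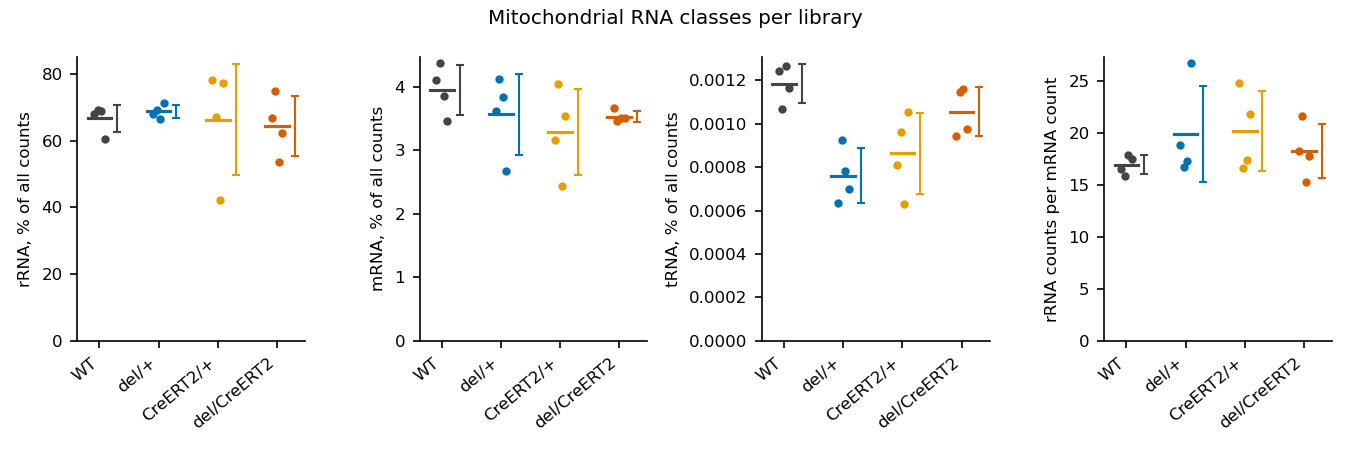
Share of all counts held by mitochondrial rRNA, mRNA and tRNA (per cent) and rRNA counts per mRNA count, for each of the 16 libraries by genotype; points are libraries, horizontal lines means, and bars beside them the SD over 4 libraries. CreERT2/+ has the widest rRNA range, from 42.3% to 78.3%, while WT tRNA shares of all counts lie above those of del/+, which overlap WT when taken per nuclear count.

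The library CreERT2/+ 3 stood lowest in rRNA at 42.3%, followed by del/CreERT2 3 at 53.6% and WT 4 at 60.6%. Against nuclear counts the spread was wider: per 100 nuclear counts, rRNA ran from 76.6 in CreERT2/+ 3 to 423.0 in CreERT2/+ 1. The mRNAs were low in the same libraries, at 4.41 per 100 nuclear counts in CreERT2/+ 3, 8.16 in del/CreERT2 3 and 9.61 in WT 4, against 10.3 to 18.5 in the other 13. The rRNA to mRNA ratio of these 3 libraries was 17.4, 15.3 and 17.5, within or just under the range of the other 13. Over all libraries it ran from 15.3 to 26.7, with a mean of 16.9 ± 0.91 in WT and 19.9 ± 4.64 in del/+, then 20.2 ± 3.84 in CreERT2/+ and 18.2 ± 2.62 in del/CreERT2 (SD, n = 4). WT was the narrowest, between 15.8 and 17.8, and del/+ 4 the highest.

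mt-Rnr2, the large-subunit rRNA (positions 1094 to 2675), and mt-Rnr1, the small-subunit rRNA (positions 70 to 1024), did not differ between genotypes beyond their spread. mt-Rnr2 read 451033, 543309, 520265 and 294266 CPM in WT 1 to 4. It was 467339, 512762, 501951 and 617488 CPM in del/+, then 899812, 507084, 131633 and 926633 CPM in CreERT2/+, and 535753, 729295, 241976 and 396508 CPM in del/CreERT2. All altered genotypes overlapped WT, and CreERT2/+ held both the lowest and the highest library. The log2 change of mt-Rnr2 was 0.21 ± 0.58 in del/+, 0.45 ± 0.58 in CreERT2/+ and 0.07 ± 0.58 in del/CreERT2 (SE), and that of mt-Rnr1 was 0.07 ± 0.56, 0.23 ± 0.56 and -0.20 ± 0.56. Adjusted p (edgeR's quasi-likelihood test, Benjamini-Hochberg over 14612 genes) was 0.986 or more in del/+ and 0.9996 or more in the other comparisons with WT.

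Among the 13 mRNAs, levels per length spanned more than 3 orders of magnitude, but only with mt-Nd4l, whose counts are uncertain given its nuclear copy. Without mt-Nd4l, the means ran from 128.4 to 8892 CPM per kb. On the CPM per kb scale mt-Co1, the catalytic subunit of cytochrome c oxidase, was highest at 8892 ± 3219 (SD over 16 libraries). mt-Nd1 of complex I followed at 5020 ± 1821, mt-Cytb of complex III at 3720 ± 1277 and mt-Nd5 at 3150 ± 1277. mt-Co2 (2610 ± 1304), mt-Nd6 (2560 ± 1390), mt-Co3 (2414 ± 1026) and mt-Nd4 (2336 ± 917) came next. From mt-Nd1 down to mt-Nd4, neighbours in this order differed by less than the larger of their SDs. mt-Nd3 (694.6 ± 402.8), mt-Atp6 (605.0 ± 365.7) and mt-Nd2 (572.6 ± 284.2) were lower and also within each other's SD. mt-Atp8 lay at 128.4 ± 73.8 and mt-Nd4l at 5.75 ± 4.58. The rRNAs were far above, with mt-Rnr2 at 327003 ± 133194 and mt-Rnr1 at 218174 ± 89982 CPM per kb.

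**Figure D2:**
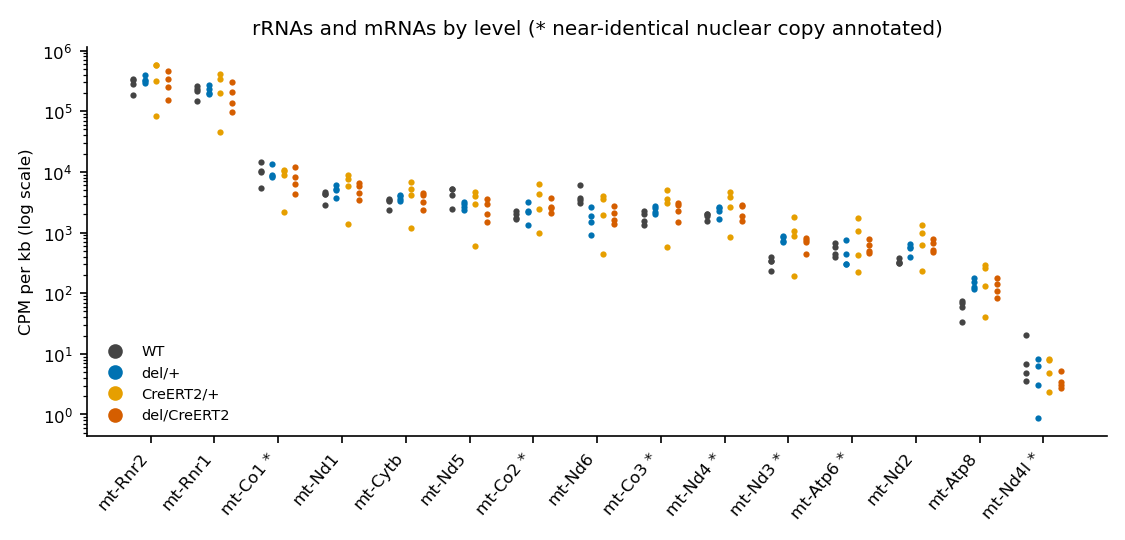
Level of the 2 rRNAs and 13 mRNAs in CPM per kb (log axis), ordered by mean over 16 libraries; each point is a library, coloured by genotype, and asterisks mark genes with a near-identical annotated nuclear copy. mt-Nd4l lies at 5.75 CPM per kb on average, against 2336 for mt-Nd4.

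Genes read from the same mRNA did not have the same level. mt-Nd4l and mt-Nd4 are known to share a single mRNA and overlap by 7 bases. The level of mt-Nd4 per kb was 98.2 to 1897 times that of mt-Nd4l, with a median of 502.3 over 16 libraries. mt-Atp8 and mt-Atp6, which also share an mRNA, were closer: the level of mt-Atp6 per kb was 1.70 to 13.3 times that of mt-Atp8, with a median of 5.39. Both mt-Nd4l and mt-Atp6 are among the genes with an identical nuclear copy, whose part in these levels was not tested. The copy of mt-Nd4l, Gm10222, has a row of its own in the table, with 4 to 135 counts per library beside 6 to 231 for mt-Nd4l itself. A row named Gm10925, whose identifier differs from that of the GENCODE copy of mt-Atp6, had 1026 to 3578 counts, beside 4722 to 22811 for mt-Atp6.

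No mitochondrial transcript passed the test in any comparison. In del/+ against WT 0 of 19 tested members passed, where 0.116% of all tested genes did. In CreERT2/+ against WT it was 0 of 19 (0.0342% of all genes), and in del/CreERT2 against WT 0 of 19 (0.335%). Between altered genotypes it was again 0 of 19, for del/CreERT2 against del/+ (0.0205%), del/CreERT2 against CreERT2/+ (0.0753%) and CreERT2/+ against del/+ (0%), and for the interaction of the alleles (0.0411%). At an unadjusted p under 0.05 in edgeR's test, 3 members stood out in del/+ (5.81% of all genes), 4 in CreERT2/+ (3.71%) and 5 in del/CreERT2 (5.67%). Among altered genotypes these counts were 0 for both del/CreERT2 comparisons (5.08% and 3.97%), 2 for CreERT2/+ against del/+ (4.18%) and 3 for the interaction (4.34%). mt-Atp8 and mt-Nd3 were among them in each comparison with WT, joined by mt-Nd6 in del/+, by mt-Nd2 and mt-Co2 in CreERT2/+, and by mt-Nd2, mt-Nd4l and mt-Nd6 in del/CreERT2. The comparisons with WT share the same 4 WT libraries and are not independent.

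**Figure D3:**
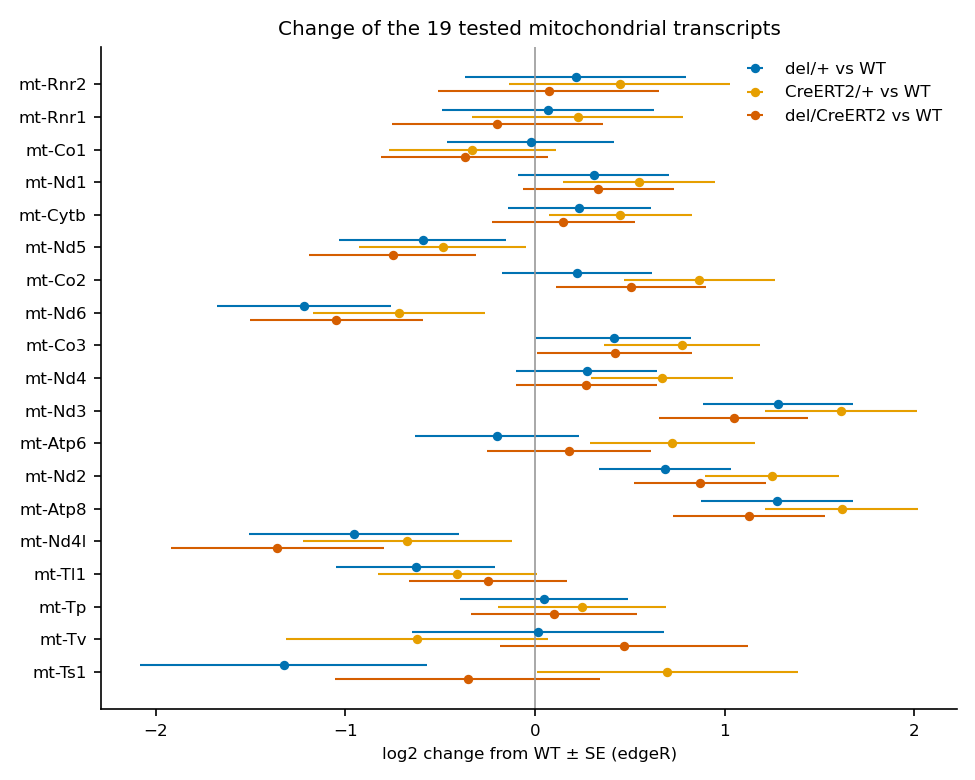
Log2 change from WT with its SE for the 19 tested mitochondrial transcripts in the 3 altered genotypes (edgeR). mt-Atp8 and mt-Nd3 lie furthest to the right, between 1.05 and 1.62, and mt-Nd6 and mt-Nd4l are on the left of 0 in each genotype; none passed the adjusted threshold.

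mt-Atp8 and mt-Nd3 had the largest positive differences from WT. mt-Atp8, a small membrane subunit of ATP synthase, read 14.2, 11.96, 15.2 and 6.89 CPM in WT 1 to 4. In del/+ it read 24.2, 35.7, 31.5 and 25.6 CPM, in CreERT2/+ 53.6, 26.3, 8.31 and 60.1 CPM, and in del/CreERT2 29.4, 36.6, 17.2 and 22.3 CPM. All del/+ and del/CreERT2 libraries lay above all WT libraries, and CreERT2/+ 3 was the only library of that genotype inside the WT range. The log2 change was 1.28 ± 0.40, 1.62 ± 0.40 and 1.13 ± 0.40 (SE), with adjusted p of 0.533, 0.433 and 0.481 in edgeR's test.

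mt-Nd3, a subunit of the membrane arm of complex I, read 79.4, 138.2, 116.2 and 117.8 CPM in WT. It read 293.6, 305.8, 251.2 and 247.6 CPM in del/+, 373.0, 304.9, 66.5 and 639.2 CPM in CreERT2/+, and 279.7, 257.4, 151.9 and 245.1 CPM in del/CreERT2. The picture by library was that of mt-Atp8: only CreERT2/+ 3 reached into or below the WT range. The log2 change was 1.28 ± 0.40, 1.61 ± 0.40 and 1.05 ± 0.39 (SE; adjusted p 0.533, 0.433 and 0.560 in edgeR's test). Without CreERT2/+ 3, mt-Atp8, mt-Nd3 and mt-Nd2 passed in CreERT2/+, mt-Atp8 and mt-Nd3 in del/+, and mt-Nd3 in del/CreERT2, and mt-Atp8 and mt-Nd3 passed for the interaction. That library was also the lowest in mitochondrial rRNA. With all libraries kept, limma-voom with sample weights called mt-Nd3 in each altered genotype. Such weights can count an outlying library less, and the weight of CreERT2/+ 3 is not given here. mt-Nd3 has a near-identical nuclear copy. For mt-Atp8 none over 100 bases was found among annotated transcripts, but its last 43 bases were identical in Gm10925. Its neighbours mt-Co2 and mt-Atp6 have identical copies on chromosome 1, and unannotated sequence there was not searched. The counts of mt-Atp8 may therefore be uncertain as well.

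mt-Nd2, another membrane-arm subunit of complex I, averaged 349 ± 29.7 CPM over WT libraries, 562 ± 106.4 over del/+, 830 ± 492 over CreERT2/+ and 637 ± 151 over del/CreERT2 (SD, n = 4). The del/+ and del/CreERT2 libraries lay above the highest WT library at 391.7 CPM. Its log2 change was 0.69 ± 0.35, 1.25 ± 0.35 and 0.87 ± 0.35 (SE), with adjusted p of 0.877, 0.669 and 0.638 in edgeR's test. For the interaction, the log2 value was -1.77 ± 0.56 for mt-Atp8, -1.85 ± 0.56 for mt-Nd3 and -1.07 ± 0.49 for mt-Nd2, none past the adjusted threshold (0.899, 0.817 and 0.996 in edgeR's test). A negative value here means that the del/CreERT2 difference was smaller than the sum of the differences in both heterozygous genotypes.

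mt-Nd6 and mt-Nd5 were lower than in WT on average. mt-Nd6, a complex I subunit and the single mRNA encoded on the minus strand, read 1893, 1783, 3133 and 1620 CPM in WT. It read 983.8, 769.6, 1393 and 474.5 CPM in del/+, 1823, 1012, 231.2 and 2057 CPM in CreERT2/+, and 1443, 1097, 705.6 and 835.0 CPM in del/CreERT2. The del/+ and del/CreERT2 libraries were all below WT, while CreERT2/+ 1 and 4 were within the WT range. The log2 change was -1.22 ± 0.46, -0.72 ± 0.45 and -1.05 ± 0.46 (SE; adjusted p 0.708, 0.9996 and 0.753 in edgeR's test). Whether reads were counted by strand is not given in the sources used here, so reads of mt-Nd6 and of antisense RNA from the opposite strand cannot be told apart. mt-Nd5, the longest of the mRNAs, had log2 changes of -0.59 ± 0.44, -0.49 ± 0.44 and -0.75 ± 0.44.

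mt-Nd4l, a small complex I subunit, had log2 changes of -0.95 ± 0.56, -0.67 ± 0.55 and -1.36 ± 0.56 (SE). Its level was low, at 2.68 ± 2.36 CPM in WT and 1.37 ± 0.98 in del/+, then 1.72 ± 0.81 in CreERT2/+ and 1.06 ± 0.32 in del/CreERT2 (SD, n = 4), and WT 3 alone stood at 6.17 CPM. Without WT 3 the log2 changes of mt-Nd4l were -0.14, 0.15 and -0.54, so the direction in CreERT2/+ rests on that library. Its partner on the mRNA, mt-Nd4, had log2 changes of 0.27 ± 0.37, 0.67 ± 0.37 and 0.27 ± 0.37. The remaining complex I mRNA, mt-Nd1, had log2 changes of 0.31 ± 0.40, 0.55 ± 0.40 and 0.33 ± 0.40.

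The other mRNAs outside complex I differed less from WT than mt-Atp8 did. mt-Cytb, the sole mitochondrially encoded subunit of complex III, had log2 changes of 0.23 ± 0.38 in del/+, 0.45 ± 0.38 in CreERT2/+ and 0.15 ± 0.38 in del/CreERT2 (SE). Among cytochrome c oxidase subunits, mt-Co1 had -0.02 ± 0.44, -0.33 ± 0.44 and -0.37 ± 0.44, the electron entry subunit mt-Co2 had 0.22 ± 0.40, 0.87 ± 0.40 and 0.51 ± 0.40, and mt-Co3 had 0.41 ± 0.41, 0.77 ± 0.41 and 0.42 ± 0.41. mt-Atp6, the proton channel subunit of ATP synthase, had -0.20 ± 0.43, 0.72 ± 0.44 and 0.18 ± 0.43. The median over the 13 mRNAs was 0.23, 0.67 and 0.27, beside -0.016, 0.013 and -0.0032 over all tested genes. Reads from within the 43 bases shared by mt-Atp8 and mt-Atp6 cannot be assigned to either gene.

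The composition of the mitochondrial mRNA pool was described with each mRNA as a per cent of all mitochondrial mRNA counts of its library. mt-Atp8 made up 0.0249% to 0.0356% in WT and 0.0626% to 0.108% in the 12 altered libraries. mt-Nd3 made up 0.199% to 0.474% in WT and 0.548% to 1.06% in altered libraries, and mt-Nd1 8.68% to 11.1% and 11.3% to 15.3%. In the opposite direction, mt-Nd5 made up 17.7% to 22.2% in WT and 10.7% to 14.6% in altered libraries, and mt-Nd6 3.71% to 7.26% and 1.51% to 3.68%. For these 5 mRNAs all 12 altered libraries lay outside the WT range, 3 of 19 tested members above it (0.404% of all tested genes) and 2 below it (0.0205%). For a nuclear gene this scale is its count over the mitochondrial mRNA counts, which ran from 4.41 to 18.5 per 100 nuclear counts. The percentages over all genes are therefore not a like-for-like background for shares within the mitochondrial pool. Shares of 1 pool depend on each other, so a lower share of an abundant mRNA such as mt-Nd5 raises those of the rest.

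**Figure D4:**
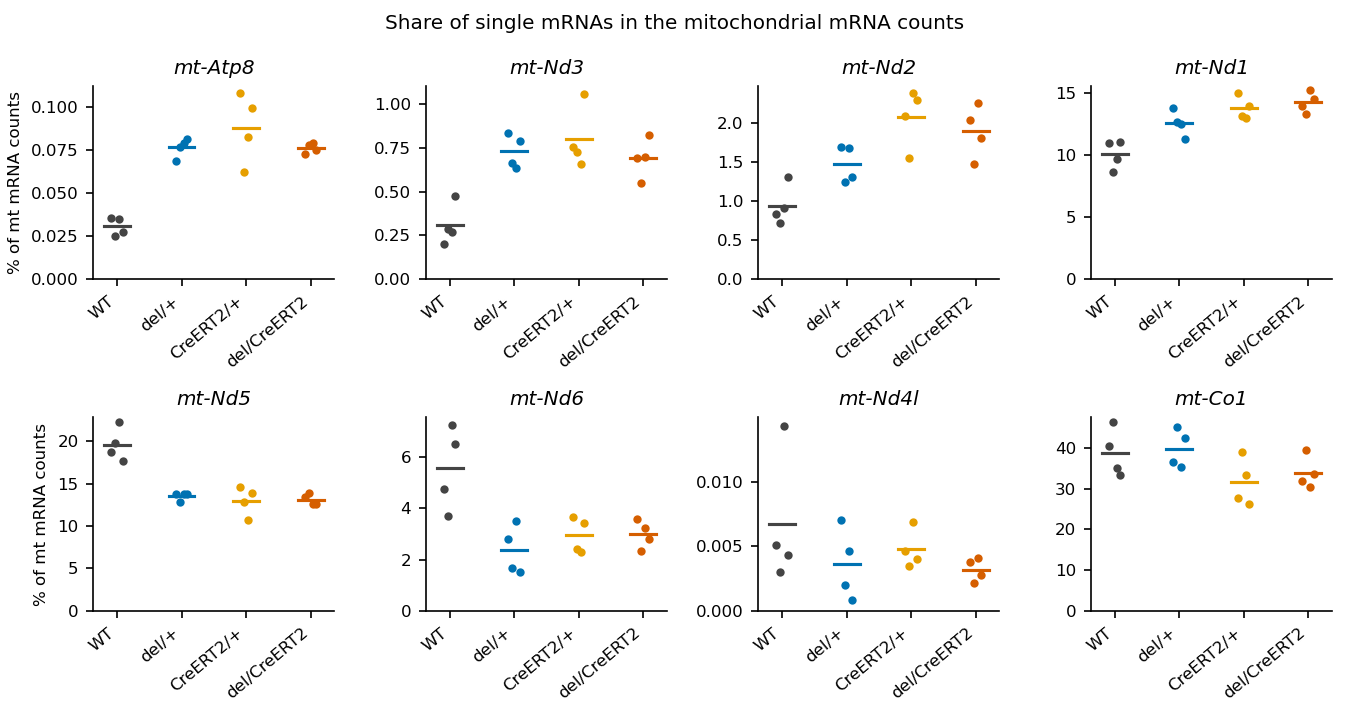
Share of 8 mRNAs in the mitochondrial mRNA counts (per cent) for each library by genotype; points are libraries and lines means of 4. mt-Atp8, mt-Nd3 and mt-Nd1 lie above, and mt-Nd5 and mt-Nd6 below, the WT range in all 12 altered libraries, while mt-Co1 and mt-Nd4l overlap WT.

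mt-Nd2 was above the WT range in 11 of the 12 altered libraries and mt-Co3 in 11, mt-Cytb and mt-Nd4 in 9 each, and mt-Co2 and mt-Atp6 in 7 each. mt-Co1, at 33.3% to 46.4% in WT, was below that range in 5. Counted over the 19 tested members on this scale, 3 were higher without overlap in del/+ (1.8% of all genes), 8 in CreERT2/+ (1.05%) and 5 in del/CreERT2 (2.76%). Those lower without overlap were 3 in del/+ (0.671%), 2 in CreERT2/+ (0.0479%) and 2 in del/CreERT2 (0.349%). Here too the percentages over all genes come mostly from nuclear genes divided by mitochondrial mRNA counts and are not a like-for-like background. In CreERT2/+ the 8 include mt-Rnr2, and in del/+ the 3 lower members include mt-Tl1; the others are mRNAs. On the CPM scale, 3 members were higher without overlap in del/+ (2.18%), 0 in CreERT2/+ (1.05%) and 3 in del/CreERT2 (2.31%), and 1, 0 and 1 were lower (1.88%, 0.602% and 1.96%). Summed over respiratory complexes, the 7 mRNAs of complex I held 43.4% ± 3.70 in WT and 38.85% ± 2.88 in del/+, then 42.9% ± 3.56 in CreERT2/+ and 42.02% ± 1.78 in del/CreERT2 (SD, n = 4). Complex III, which is mt-Cytb alone, held 8.23% to 11.02% in WT, 10.4% to 12.9% in del/+, 11.3% to 13.3% in CreERT2/+ and 10.96% to 12.4% in del/CreERT2. The 3 mRNAs of complex IV held 42.1% to 52.6% in WT and 39.5% to 52.3% elsewhere, and the 2 of complex V 0.576% to 1.26% and 0.516% to 2.04%. Only CreERT2/+ in complex III lay wholly outside the WT range among these sums.

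The nuclear small RNA 7SK, added after values were seen, was also read by library. The row with the highest total count under this name was taken. 7SK, which holds the transcription elongation factor P-TEFb inactive, was at 12.3 to 29.6 CPM in WT and 174.1 to 691.4 in del/+, then 31.0 to 162.7 in CreERT2/+ and 46.4 to 218.1 in del/CreERT2, so WT did not overlap any altered genotype. Within CreERT2/+ its lowest library was again CreERT2/+ 3, at 31.0 CPM just above the highest WT library at 29.6. On the CPM scale, 2.18% of all tested genes were higher without overlap in del/+, 1.05% in CreERT2/+ and 2.31% in del/CreERT2. The share of genes that split all altered libraries from WT on this scale was not counted. The part of 7SK in the values of mt-Atp8, mt-Nd3, mt-Nd1, mt-Nd5 and mt-Nd6 was not tested.

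Ratios between pairs of transcripts compare RNAs within a library and need no scaling. The 5 ratios were tested in 3 genotypes against WT with a two-sided exact permutation test on log2 ratios, and p was adjusted over the 15 tests. With 4 libraries against 4, the smallest p is 0.0286. A ratio could pass after adjustment only if many of the 15 tests reached that p, so not passing does not show that ratios were equal. The ratio of mt-Atp8 to mt-Atp6 was 0.0365, 0.0451, 0.0332 and 0.0226 in WT 1 to 4. It was 0.079, 0.176, 0.0603 and 0.126 in del/+, 0.0734, 0.0917, 0.0538 and 0.0515 in CreERT2/+, and 0.0559, 0.106, 0.0553 and 0.0529 in del/CreERT2. Every altered library was above every WT library, with geometric mean ratios 3.04-fold, 1.97-fold and 1.94-fold higher. Each exact p was 0.0286, the smallest possible, and 0.0857 after adjustment, so none passed.

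The ratio of the rRNAs, mt-Rnr2 to mt-Rnr1, was 2.21 ± 0.187 in WT and 2.49 ± 0.382 in del/+, then 2.70 ± 0.274 in CreERT2/+ and 2.72 ± 0.221 in del/CreERT2 (SD, n = 4). Both rRNAs are cut from the same precursor, with mt-Tv between them. The del/CreERT2 libraries, at 2.53 to 3.04, lay above WT at 2.09 to 2.48 (exact permutation p = 0.0286, adjusted 0.0857). In CreERT2/+ (exact p = 0.0571, adjusted 0.143) and del/+ (exact p = 0.257, adjusted 0.386) the libraries overlapped WT.

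**Figure D5:**
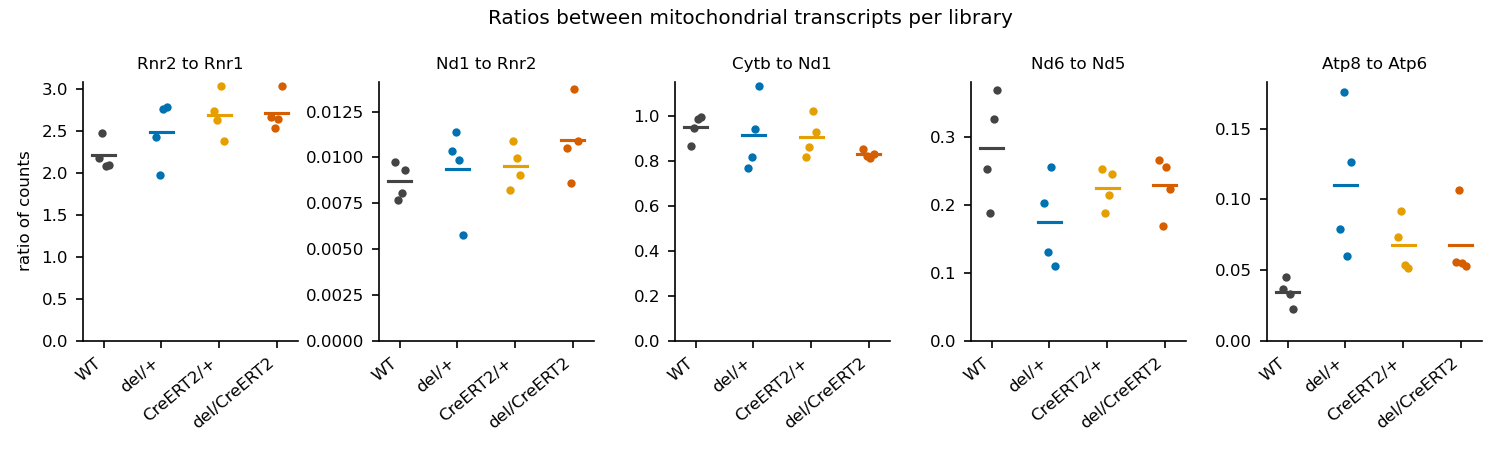
The 5 ratios between counts of mitochondrial transcripts for each library by genotype; points are libraries and lines means of 4. The mt-Atp8 to mt-Atp6 ratio is 0.0226 to 0.0451 in WT and 0.0515 to 0.176 in the altered genotypes, while the other ratios overlap WT in at least 2 of the 3 genotypes.

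mt-Cytb to mt-Nd1, the last against the first mRNA on the plus strand, was 0.951 ± 0.0581 in WT and 0.831 ± 0.017 in del/CreERT2 (SD, n = 4), without overlap (exact permutation p = 0.0286, adjusted 0.0857). It was 0.917 ± 0.164 in del/+ and 0.909 ± 0.0898 in CreERT2/+, both overlapping WT. mt-Nd6 to mt-Nd5, the minus-strand mRNA against its plus-strand neighbour, was 0.284 ± 0.080 in WT and 0.175 ± 0.0675 in del/+, then 0.225 ± 0.0299 in CreERT2/+ and 0.229 ± 0.0442 in del/CreERT2. It overlapped WT throughout (exact p from 0.143 to 0.286). mt-Nd1 to mt-Rnr2, an mRNA against the rRNA upstream of it, ran from 0.00768 to 0.00974 in WT and from 0.00576 to 0.0137 in the other libraries, with exact p from 0.114 to 0.8286.

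The tRNAs gave 4983 counts over all libraries, and 2 of the 22 held 78.6% of them. mt-Tl1, a leucine tRNA just downstream of mt-Rnr2 (positions 2676 to 2750), had 52.0% and mt-Tp, the proline tRNA on the minus strand (positions 15356 to 15422), 26.6%. mt-Tv followed with 202 counts and mt-Ts1 with 161. At the other end mt-Td had 0 counts in all 16 libraries. A count of 0 allows up to 3 counts per library, or 0.0702 to 0.140 CPM before TMM scaling, and this covers counting error only. mt-Tk had 1 count and mt-Ta and mt-Tt had 2 each, and 7 tRNAs in all had fewer than 10 counts over the series. At these counts a difference between genotypes was not detectable for most of the class.

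None of the 4 tested tRNAs passed the test, and their CPM overlapped WT in every altered genotype. mt-Tl1 was at 6.43 ± 1.56 CPM in WT and 4.16 ± 1.30 in del/+, then 4.91 ± 2.86 in CreERT2/+ and 5.42 ± 2.13 in del/CreERT2 (SD, n = 4), with log2 changes of -0.63 ± 0.42, -0.41 ± 0.42 and -0.25 ± 0.41 (SE). mt-Tp was at 2.63 ± 0.55, 2.72 ± 0.52, 3.18 ± 1.99 and 2.85 ± 1.46 CPM in the same order. mt-Tv, which lies between the rRNAs, was at 0.407 ± 0.177, 0.409 ± 0.247, 0.278 ± 0.167 and 0.574 ± 0.343 CPM. mt-Ts1, whose gene overlaps the end of mt-Co1 by 3 bases on the other strand, had log2 changes of -1.33 ± 0.76, 0.70 ± 0.69 and -0.35 ± 0.70.

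Nuclear genes that serve mitochondrial expression did not pass the test either. Of 75 tested genes of mitochondrial ribosomal proteins, 34 of mitochondrial RNA synthesis and processing and 22 of mitochondrial DNA maintenance, 0 passed in each comparison with WT, beside the 0.116%, 0.0342% and 0.335% of all genes given above. The medians of the log2 changes were 0.12, 0.011 and 0.030 for the ribosomal proteins, 0.040, -0.091 and -0.0005 for RNA synthesis and processing, and 0.010, 0.0039 and -0.018 for DNA maintenance. The lowest p among them in del/CreERT2 belonged to Mpv17, an inner membrane protein needed to keep mitochondrial DNA, at 7.40 ± 1.03 CPM in WT and 12.7 ± 1.40 (SD, n = 4; log2 change 0.78 ± 0.22, adjusted p = 0.229 in edgeR's test). Tk2, the mitochondrial thymidine kinase, was next in its list with 0.89 ± 0.47. Mrm1, an rRNA methyltransferase for mt-Rnr2, had -0.80 ± 0.38, 1110008L16Rik of the same list had 0.41 ± 0.20, and Mrps35 and Mrpl43 of the ribosome had -0.37 ± 0.20 and 0.45 ± 0.25.

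The authors' deposited table gives no value for mt-Rnr2, mt-Rnr1 or mt-Co1 in any of its 6 comparisons. With mmu-mir-689-2, Ttn and Lars2, these are the 6 rows with the highest total counts in the table, and none of the 6 has a value there. Of the 37 mitochondrial genes 17 have values in the authors' deposited table and 0 pass at an adjusted p of 0.05. The log2 change of mt-Atp8 in the authors' deposited table is -1.28 for WT over del/+, -1.61 for WT over CreERT2/+ and -1.12 for WT over del/CreERT2, where a negative value means lower in WT.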

How the data were processed

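Heart RNA was extracted with Qiazol and the miRNeasy micro kit and made into libraries with an Ovation kit (RNA-seq system V2). The labels' protocols give these steps, and the labels name the molecule polyA RNA. The tools listed in the submitters' processing notes are TopHat2, featureCounts and edgeR, with build mm9. Their versions and the settings for strand and multi-mapping reads were not given in the sources used here. Column names carry q30, per the file headers. The authors deposited whole-number counts per gene, and none is an expected count estimated by a model. The authors' deposited table also gives log2 changes, and the authors' deposited p-values and adjusted p-values, printed only where that table is named. Another 52 value columns went unused. Rows without a symbol took at most 0.117% of a library.

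edgeR 4.0.16 in R 4.3.3 fitted 1 mean per genotype to all 16 libraries (default filter, 14612 genes, TMM, quasi-likelihood, 12 residual degrees of freedom, 7 contrasts) with Benjamini-Hochberg adjustment and a threshold of 0.05. It was tested on simulated data. Ratios used counts plus 0.5. Copies were searched with blastn (BLAST 2.17.0) in GENCODE vM21 transcripts. Every pair of libraries of 1 genotype differed by more than sampling noise, with chi-square over its degrees of freedom from 22.9 to 617.5. Alternatives were RLE factors, library sizes without mitochondrial genes, no filter, a filter at a mean CPM of 5 and DESeq2 1.42.0. Further ones were limma-voom with sample weights (limma 3.58.1), a replicate block, only the groups compared and each library left out. The 3 libraries lowest in mitochondrial rRNA were also left out together.

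Members, lists and tests were chosen with earlier results of these data known. The text names all rRNAs and mRNAs, the tRNAs with the most and fewest reads, and for each nuclear list the genes with the lowest p in del/CreERT2; mt-Ts1, 7SK, the copies and shares of the mRNA pool were added after values were seen.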

Additional observations from a re-analysis of the deposited data

Results flagged for a closer look

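In 6 of 108 groups of 4 libraries checked (named transcripts, ratios and class shares), 1 library lay far from the other 3; chance gives about 1 in 20 such groups. In WT, library 4 was lowest in mitochondrial rRNA (60.6% of counts, the others 67.9% to 69.3%), in mt-Nd1 (2745 CPM, the others 4172 to 4392) and in mt-Tp (1.81 CPM, the others 2.80 to 2.99). In del/+, library 2 was highest in mt-Co1 at 20853 CPM. In del/CreERT2, library 2 was highest in the mt-Atp8 to mt-Atp6 ratio (0.106, the others 0.0529 to 0.0559) and in mt-Tl1 (8.58 CPM, the others 3.95 to 4.74).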

How the results depend on the processing

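For mitochondrial transcripts called, 0 in each of the 7 comparisons, the count stayed 0 in the 3 comparisons between altered genotypes under every alternative run. Without the filter it was 3 in del/+, 3 in CreERT2/+, 2 in del/CreERT2 and 2 for the interaction; without the 3 libraries lowest in mitochondrial rRNA (WT 4, CreERT2/+ 3 and del/CreERT2 3, picked on that measured value) it was also 3, 3, 2 and 2. limma-voom gave 1, 3, 1 and 1, DESeq2 gave 2 in CreERT2/+, and fitting only the groups compared gave 2 in del/+. Leaving out each library gave 0 to 2, 0 to 3, 0 to 1 and 0 to 2, every call above 0 coming without CreERT2/+ 3. All these calls were of mt-Atp8, mt-Nd3, mt-Nd2 and, in del/+, mt-Nd6. The cause was not tested.

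Some small log2 changes turned their direction. In del/+, mt-Rnr1 was -0.00079 with the block, -0.0033 with limma-voom and -0.075 without the 3 libraries; mt-Tp was -0.0014, -0.049 and -0.098, and mt-Tv -0.20 with limma-voom and -0.25 without the 3 libraries. In del/CreERT2, mt-Rnr2 was -0.051 and mt-Tp -0.035 with the block, and mt-Tp -0.059 with limma-voom. Leaving out each library, del/+ values ran from -0.075 to 0.18 for mt-Rnr1, -0.23 to 0.21 for mt-Co1, -0.0048 to 0.41 for mt-Co2, -0.097 to 0.13 for mt-Tp and -0.32 to 0.35 for mt-Tv. CreERT2/+ values ran from -0.12 to 0.57 for mt-Rnr1, -0.94 to 0.15 for mt-Nd4l and -0.15 to 0.61 for mt-Tp, and del/CreERT2 values from -0.21 to 0.27 for mt-Rnr2 and -0.25 to 0.31 for mt-Tp. The del/+ log2 ratios ran from -0.046 to 0.28 for mt-Nd1 to mt-Rnr2 and -0.18 to 0.012 for mt-Cytb to mt-Nd1. No ratio passed the threshold under any alternative, but 4 libraries against 4 could pass after adjustment over 15 tests only with many ratios at the smallest p, so this says nothing of stability.

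Genes called in all numbered 17, 5 and 49 against WT, and ran over all alternatives from 10 to 120, 3 to 73 and 13 to 189. For del/CreERT2 against del/+ it was 3 (2 to 65), against CreERT2/+ 11 (2 to 92), for CreERT2/+ against del/+ 0 (0 to 36) and for the interaction 6 (4 to 73). With a replicate block, 0 mitochondrial transcripts were called. Only 3 of 24 same-number pairs had a correlation over 0.1 (-0.33 to 0.49). Pairs of different number were not compared, so this does not decide whether the numbers pair the samples. The tRNAs are limited by their low counts, whose cause was not tested.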
